A study of Macaca fascicularis with 6 samples.

Results

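Heat shock proteins and other molecular chaperones were examined across the cell classes of the cynomolgus monkey lung, as a set of 10 genes chosen by symbol for their function. The files held a row for 8 of these 10 symbols, among 28623 genes in all. They were HSPA8, HSPH1, DNAJB1, DNAJA1, HSP90AA1, HSPA5, HSP90B1 and HSPD1. HSPA1A and HSPE1 had no row of that symbol and were not analysed here. Lung cells came from 6 male monkeys aged 3 to 5 years with 1 droplet library each. The control group (replicates 1, 2 and 3) received saline, and the asthma group (replicates 8, 10 and 11) was sensitized to and then challenged with allergen of the roundworm A. suum. In both groups the tissue was digested with enzymes in a warmed bath, and red blood cells and dead cells were removed before loading.

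Chaperones bind proteins that are not yet folded or have lost their fold, and many of them are made in larger amounts when cells meet heat, oxidants or a surge of new protein. In the cytosol, HSP70 proteins work with J-domain partners that deliver clients and with nucleotide exchange factors that release them, and HSP90 takes over many signalling proteins. The endoplasmic reticulum has its own HSP70 and HSP90, which fold secreted and membrane proteins, and the mitochondrial matrix folds proteins in the chamber of HSP60. Secretory cells such as plasma cells are known for a large endoplasmic reticulum, and neutrophils for a small one.

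After quality control 24235 of 35133 barcodes were retained, with 24593874 to 34526867 UMIs (unique molecular identifiers, each standing for 1 captured RNA molecule) per library. Cells were clustered with all listed chaperone genes left out of the variable genes, and clusters were named from marker lists, so each name ends in -like. A total of 12 classes were tested, from 10161 T and NK-like cells to 116 plasma-like cells. Lung and class markers were present in every library. Levels are UMIs per 1000000 UMIs of a class in a library (CPM), given as mean ± SD over libraries. The surfactant gene SFTPC measured 62868 to 178200 CPM in epithelial-like cells, the scavenger receptor gene MARCO 310 to 848 in macrophage-like cells and PECAM1 2182 to 3655 in endothelial-like cells. They were not divided by transcript length, so levels of different genes are not compared. Control replicate 1 stood apart from the other libraries in several of these genes, as described below, and the main results that rest on it are also given without it.

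Between cell classes, each class was set against the unweighted mean of the others. Of 96 results for 8 genes in 12 classes, 32 (33.3%) were called higher and 26 (27.1%) lower, against 31.0% and 20.2% of all genes tested in these classes. A call needed an adjusted p under 0.05 in edgeR's quasi-likelihood test and an absolute log2 fold change over 0.25. Without control replicate 1, 55 of 96 results were called, and 4 of the 58 calls were lost.

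**Figure D1:**
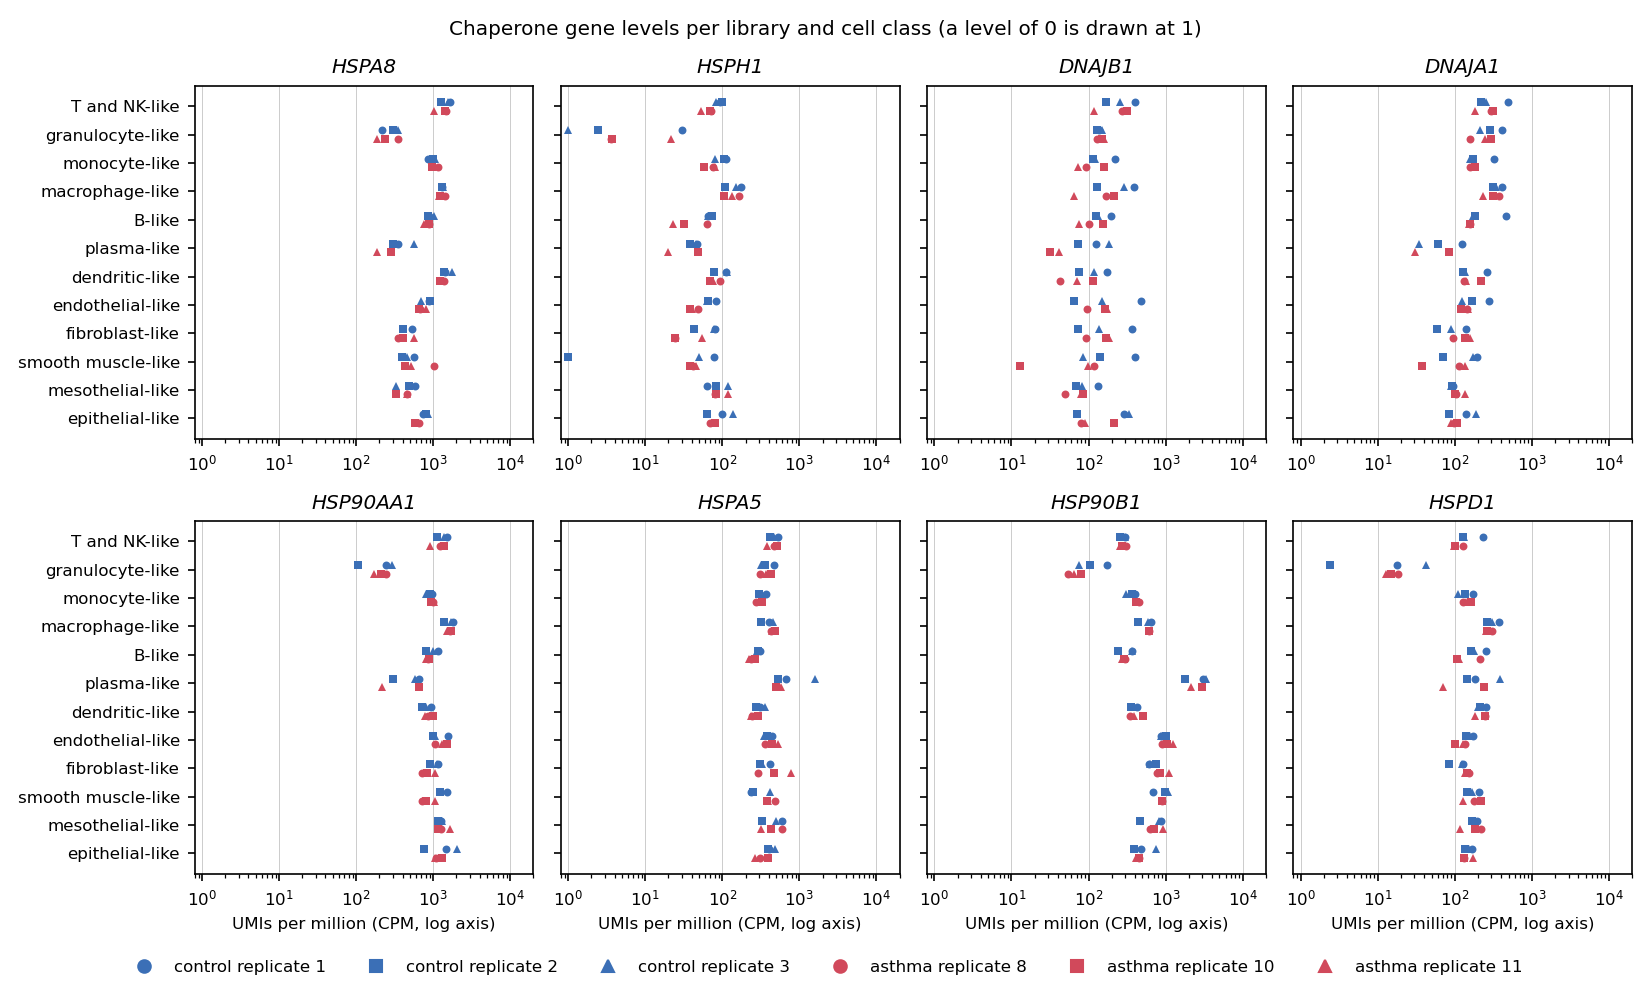
Level of each of the 8 chaperone genes (CPM, log axis) in each cell class, with 1 point per library, blue for control and red for asthma. HSP90B1 lies between 1814 and 3393 in plasma-like cells, above every other class, and HSPD1, HSPH1, HSP90AA1 and HSPA8 have their lowest class means in granulocyte-like cells.

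HSPA8 (ENSMFAG00000038633) encodes the constitutive cytosolic HSP70, which folds new proteins and strips clathrin from vesicles. Its level was highest in dendritic-like (1404 ± 177 CPM, n = 6), T and NK-like (1388 ± 220) and macrophage-like cells (1296 ± 84.8) and lowest in granulocyte-like cells (274 ± 69.9), a 5.13-fold range of class means, and every granulocyte-like library lay below every library of these 3 classes. HSPA8 was called higher in dendritic-like (log2 fold change 1.32, SE 0.11, adjusted p = 9.92e-17, edgeR), macrophage-like (1.22, SE 0.11) and T and NK-like cells (1.11, SE 0.11). It was called lower in granulocyte-like cells (-1.57, SE 0.15) and in fibroblast-like, smooth muscle-like and mesothelial-like cells, by log2 fold changes of -0.84, -0.91 and -0.89. Monocyte-like (0.74) and B-like cells (0.38) were called higher as well. The lower call in smooth muscle-like cells was lost when library sizes alone were used, without scaling factors.

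HSPH1 (ENSMFAG00000018638) encodes HSP110, a large HSP70 relative that acts as a nucleotide exchange factor. Macrophage-like cells had the highest level (139 ± 28.0 CPM) and granulocyte-like cells the lowest (10.2 ± 12.3). The granulocyte-like value rested on 14 UMIs over 6 libraries, with 0 in control replicate 3, which allows a level of up to 32.0 CPM (3 UMIs, counting error only). HSPH1 was called higher in macrophage-like cells (log2 fold change 1.58, SE 0.12, adjusted p = 1.33e-19, edgeR) and lower in granulocyte-like cells (-3.07, SE 0.31). Dendritic-like (0.88), monocyte-like (0.73), epithelial-like (0.61), mesothelial-like (0.52) and T and NK-like cells (0.46) were also called higher, and smooth muscle-like (-0.90), endothelial-like (-0.56) and fibroblast-like cells (-0.39) lower, the last 3 not without scaling factors.

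DNAJB1 (ENSMFAG00000042314) and DNAJA1 (ENSMFAG00000032081) encode J-domain partners of cytosolic HSP70, and DNAJB1 is a classic target of the heat shock response. DNAJB1 had its highest class mean in T and NK-like cells (255 ± 102 CPM) and its lowest in mesothelial-like cells (82.9 ± 27.5), a 3.07-fold range. Its libraries spread widely within most classes, for example from 64.8 to 394 CPM in macrophage-like cells. DNAJB1 was called higher in T and NK-like (log2 fold change 0.96, SE 0.18, adjusted p = 2.98e-06, edgeR) and macrophage-like cells (0.77, SE 0.18), and lower in mesothelial-like (-1.04, SE 0.24) and smooth muscle-like cells (-0.61, SE 0.26). The last of these was not called without scaling factors. DNAJA1 was highest in macrophage-like cells (334 ± 62.8 CPM), followed by T and NK-like (293 ± 106) and granulocyte-like cells (268 ± 85.8). It was the only one of the 8 genes called higher in granulocyte-like cells (log2 fold change 0.69, SE 0.16, adjusted p = 0.000142, edgeR), and in plain CPM these cells also had the third highest class mean.

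HSP90AA1 (ENSMFAG00000037140) encodes the inducible cytosolic HSP90. Its class means ran from 211 ± 64.7 CPM in granulocyte-like cells to 1628 ± 159 in macrophage-like cells, a 7.73-fold range, and plasma-like cells had the second lowest (481 ± 209). It was called higher in macrophage-like (log2 fold change 1.17, SE 0.11, adjusted p = 2.11e-15, edgeR), T and NK-like (0.54), epithelial-like (0.48) and mesothelial-like cells (0.42). In granulocyte-like cells it was called lower by -2.46 (SE 0.16, adjusted p = 1.84e-22, edgeR). The lower call in smooth muscle-like cells (-0.40, SE 0.13) turned to 0.27, with no call, when library sizes alone were used.

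HSP90B1 (ENSMFAG00000036813) encodes GRP94, the HSP90 of the endoplasmic reticulum, which is needed to fold integrins and Toll-like receptors. The control plasma-like cells had 3023, 1814 and 3393 CPM, and those of asthma replicates 10 and 11 had 3010 and 2159. Asthma replicate 8 had 8 plasma-like cells and did not enter. Each of these 5 values was above every value of every other class, where the means ran from 92.0 ± 43.4 in granulocyte-like to 994 ± 143 in endothelial-like cells. HSP90B1 was called higher in plasma-like cells by a log2 fold change of 3.43 (SE 0.10, adjusted p = 1.32e-40, edgeR), or 2.52 with library sizes alone. Endothelial-like, fibroblast-like, mesothelial-like and macrophage-like cells were called higher by 0.59, 0.49, 0.32 and 0.39. T and NK-like, B-like and monocyte-like cells were called lower, by -0.98, -0.85 and -0.31, and granulocyte-like cells by -2.85.

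HSPA5 (ENSMFAG00000039748) encodes BiP, the HSP70 of the endoplasmic reticulum and the sensor partner of the unfolded protein response. It varied least between classes, with a 2.89-fold range from B-like (268 ± 32.9 CPM) to plasma-like cells (774 ± 456). The plasma-like values were 676, 534 and 1581 CPM in the control and 496 and 585 in the asthma libraries, so the mean and its SD were set largely by control replicate 3, which had 11 plasma-like cells. HSPA5 was called higher in plasma-like cells (log2 fold change 1.83, SE 0.13, adjusted p = 4.76e-19, edgeR), and with library sizes alone the value was 0.96, still called. Granulocyte-like cells, low in GRP94, had 376 ± 64.2 CPM of HSPA5 and no call (-0.17, SE 0.14).

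HSPD1 (ENSMFAG00000033000) encodes HSP60, the barrel of the mitochondrial chaperonin. It was highest in macrophage-like (295 ± 44.5 CPM), dendritic-like (224 ± 29.98) and plasma-like cells (206 ± 121) and lowest in granulocyte-like cells (18.1 ± 13.3), a 16.3-fold range. The granulocyte-like value, and so this range, rested on 24 UMIs in all, with 1 to 8 per library. Macrophage-like (log2 fold change 1.42, SE 0.10), plasma-like (1.32, SE 0.14) and dendritic-like cells (0.96, SE 0.11) were called higher and granulocyte-like cells lower (-3.61, SE 0.23, adjusted p = 5.32e-23, edgeR). The plasma-like call was lost without scaling factors, where the log2 fold change was 0.45.

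**Figure D2:**
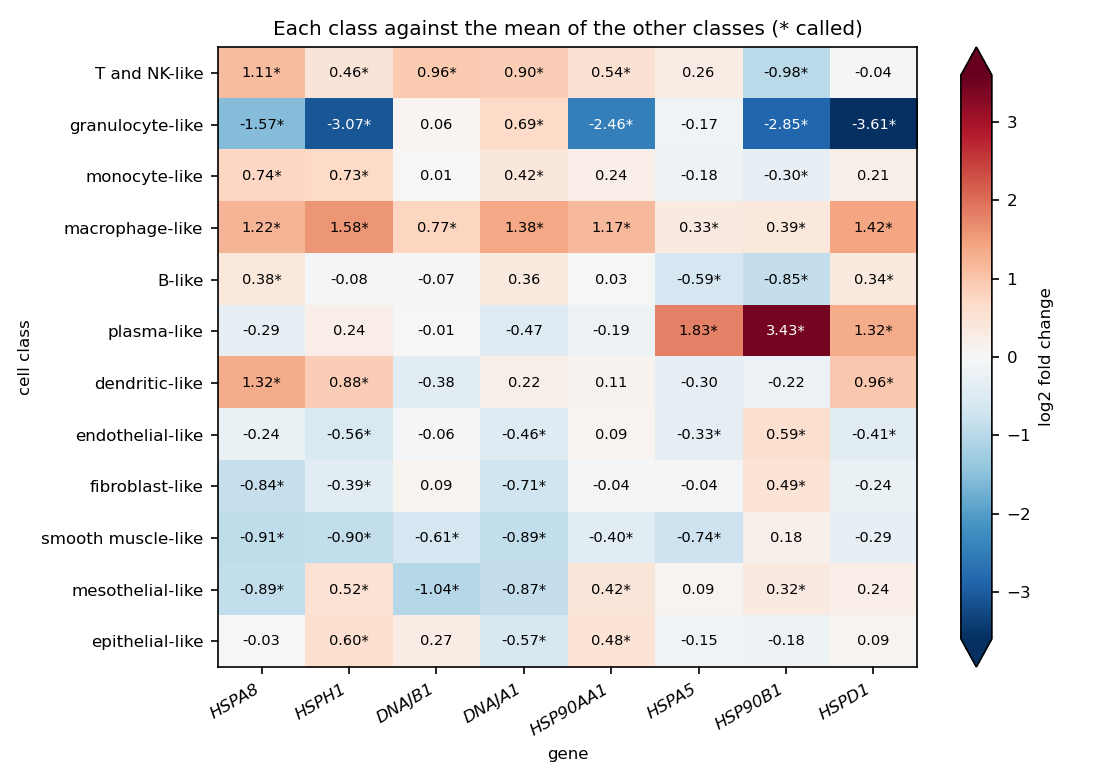
Log2 fold change of each chaperone gene (columns) in each class (rows) against the mean of the other classes, red for higher and blue for lower, with an asterisk for a call. All 8 genes are called higher in macrophage-like cells, and the largest values are 3.43 for HSP90B1 in plasma-like cells and -3.61 for HSPD1 in granulocyte-like cells. The latter rests on 24 UMIs in granulocyte-like cells.

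By class, macrophage-like cells had calls for all 8 genes, all higher, where 38.4% of all genes were called higher and 17.7% lower, and those of HSP90B1 and HSPA5 were lost without scaling factors. Plasma-like cells had 3 higher calls of 8 (HSP90B1, HSPA5 and HSPD1), against 16.9% of all genes, and 0 lower. Granulocyte-like cells had 5 lower calls of 8 against 38.6% and 1 higher call against 25.3%. The size of these lower values depended on the processing, as given in the closing sections. T and NK-like cells had 5 higher calls against 37.3% and 1 lower call against 18.6%, monocyte-like cells 3 against 34.6% and 1 against 16.4%, and dendritic-like cells 3 against 30.3% and 0 against 16.8%. B-like cells had 2 higher calls against 29.8% and 2 lower calls, both of endoplasmic reticulum genes, against 15.3%. Among the structural classes, mesothelial-like cells had 3 higher calls against 33.6% and 3 lower against 24.0%, and epithelial-like cells 2 against 32.9% and 1 against 21.4%. Endothelial-like cells had 1 higher call against 32.3% and 4 lower against 19.7%, and fibroblast-like cells 1 against 33.0% and 3 against 23.1%, the higher call being HSP90B1 in both. The 4 lower calls of endothelial-like cells, DNAJA1, HSPA5, HSPD1 and HSPH1, were all lost without scaling factors. Smooth muscle-like cells had 0 higher calls against 27.6% and 6 lower against 19.3%, none of which was kept without scaling factors. The median log2 fold change of all genes was -0.75 in granulocyte-like, -0.16 in plasma-like and 0.11 in macrophage-like cells, beside medians of -2.02, 0.12 and 1.20 for the 8 genes. With library sizes alone, 10.4% of the calls over all genes in plasma-like cells were higher, against 60.7% with TMM, and the median of all genes moved to -1.19, so that HSP90AA1, HSPA8, HSPH1, DNAJB1 and DNAJA1, which had no call in plasma-like cells, were then called lower. Lower calls were also gained by DNAJB1 (-0.58), HSP90B1 (-0.435) and HSPA5 (-0.52) in dendritic-like and by HSPA5 (-0.35) in monocyte-like cells, where the higher call of DNAJA1 was lost. Higher calls were gained by HSP90B1 in smooth muscle-like (0.85), HSP90AA1 in endothelial-like (0.50), HSPD1 in mesothelial-like (0.40) and DNAJA1 in B-like cells (0.37). Neighbouring classes in the order of mean levels were compared by exact two-sided sign-flip tests over paired libraries. The order was taken from the same libraries, and the smallest p that 6 pairs allow, 0.03125, is too coarse for a small number of pairs to pass an adjustment over 88, so these tests cannot resolve single neighbours. That p was reached by 8 of the 88 pairs, and 0 passed the adjustment.

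Related genes were read from lists of 74 further chaperones and regulators, 65 of which had a row. In plasma-like cells 14 of 16 tested endoplasmic reticulum chaperones were called higher and 1, SERPINH1, lower (median log2 fold change 2.14), where 16.9% of all genes were called higher and 1172 of 10694 lower. With library sizes alone 12 were called higher and 2 lower (median 1.19). Among the regulators, HERPUD1, which takes part in degradation at the endoplasmic reticulum, reached 1036 ± 233 CPM (log2 fold change 3.01, SE 0.13), and EIF2AK3, which encodes the stress sensor PERK, reached 46.7 ± 12.9 CPM (2.82, SE 0.27). ATF5 (2.75, SE 0.45) and the mitochondrial disaggregase gene CLPB (2.34, SE 0.35) were called from 18 and 22 UMIs in all. In granulocyte-like cells 13 of 16 endoplasmic reticulum chaperones, all 7 tested subunits of the cytosolic chaperonin and 5 of 6 mitochondrial chaperones were called lower, against 38.6% of all genes (median of all genes -0.75). DNAJB9, an endoplasmic reticulum J-domain protein gene, was called higher there, as were 5 of 9 regulators, ATF6, DDIT3, EIF2AK3, ERN1 and HERPUD1, against 25.3% of all genes, while ATF4 and HSF2 were called lower (median of the 9 regulators 0.96). The chaperonin, which folds actin and tubulin, was called higher in 7 of 7 subunits in macrophage-like, T and NK-like and dendritic-like cells, against 38.4%, 37.3% and 30.3% of all genes, and in 6 of 7 in each with library sizes alone. Its largest values were those of CCT5 in monocyte-like (1.06, SE 0.10) and macrophage-like cells (1.02, SE 0.09) and of CCT8 in dendritic-like cells (1.01, SE 0.10).

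Some chaperones were called in structural classes, higher or lower. In fibroblast-like cells 8 of 25 tested cytosolic heat shock proteins and cochaperones were called higher and 9 lower. Of 16 endoplasmic reticulum chaperones 9 were called higher and 1 lower there, against 33.0% and 23.1% of all genes. In smooth muscle-like cells these counts were 6 and 3, and 2 and 5, against 27.6% and 19.3%. Genes with the largest higher values are named here. SERPINH1, the collagen chaperone HSP47, measured 425 ± 112 CPM in fibroblast-like, 287 ± 92.0 in smooth muscle-like and 158 ± 27.1 in mesothelial-like cells, with log2 fold changes of 6.94, 5.80 and 5.42. The small heat shock protein genes CRYAB in smooth muscle-like cells (5.71, SE 0.41) and HSPB8 in endothelial-like (5.78, SE 0.35) and fibroblast-like cells (5.38, SE 0.40) were called higher. Of the mitochondrial chaperones, TRAP1 in mesothelial-like (1.04, SE 0.16) and, outside the structural classes, GRPEL1 in dendritic-like cells (1.02, SE 0.15) were called higher. These p-values too came from edgeR.

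The genes most alike in level over the 71 library-by-class profiles differed between the chaperones. Profiles share libraries and classes, so the Pearson correlations of log2 CPM, taken over 2982 genes with a mean of at least 50 CPM, are descriptions. HSP90B1 was closest to TXNDC5 (r = 0.91) and PDIA6 (0.909), both protein disulfide isomerases. HSP90AA1 was closest to its paralog HSP90AB1 (0.903), as was HSPD1 (0.879, then NME1-NME2 with 0.873). HSPA8 was closest to DBI (0.816) and ACTG1 (0.806), DNAJA1 to SERF2 (0.728) and PHF5A (0.727), and HSPA5 to REXO2 (0.569) and HM13 (0.558). DNAJB1 was closest to FOSB (0.579) and GADD45B (0.56), both on the list of immediate-early genes, which respond to stimuli within minutes. The closest genes to HSPH1 had no symbol (ENSMFAG00000037304, 0.832, and ENSMFAG00000046691, 0.807). Among the chaperones themselves r was largest for HSP90AA1 with HSPD1 (0.776) and most negative for HSP90B1 with DNAJA1 (-0.522).

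Libraries differed from each other within classes. Averaged over 12 classes, control replicate 1 lay above the class mean by 0.97 on the log2(CPM + 1) scale for DNAJB1 and 0.65 for DNAJA1, and it was above that mean in 11 of 12 classes for each. For HSPD1 (0.30, 12 of 12 classes) and HSP90AA1 (0.27, 11 of 12 classes) it was also the highest library. For HSPA8, HSPA5 and HSP90B1 its deviation was at most 0.11. Control replicate 2 was the lowest library for HSP90AA1 (-0.27), HSPD1 (-0.31), HSPA5 (-0.20), HSP90B1 (-0.18) and DNAJA1 (-0.22). For HSPH1 the deviations were 0.59 and -0.43 in control replicates 1 and 2, but control replicate 2 had 0 UMIs in its smooth muscle-like cells, which allows a level of up to 107 CPM (3 UMIs, counting error only), and control replicate 3 had 0 in granulocyte-like cells. With both classes left out, an alternative chosen after seeing the data, the control replicates 1, 2 and 3 had HSPH1 deviations of 0.32, 0.04 and 0.33. Those of asthma replicates 8, 10 and 11 were -0.11, -0.33 and -0.27. Control replicate 2 also carried red blood cell markers, led by HBB, that summed to 707 CPM in T and NK-like, 679 in macrophage-like and 352 in monocyte-like cells, where the other libraries had at most 7.48, 1.08 and 1.34. The summed immediate-early genes were highest in control replicate 1 (0.40), followed by control replicate 3 (0.32), and lowest in asthma replicate 11 (-0.50). The part of these red blood cell and immediate-early transcripts in the chaperone levels was not tested.

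**Figure D3:**
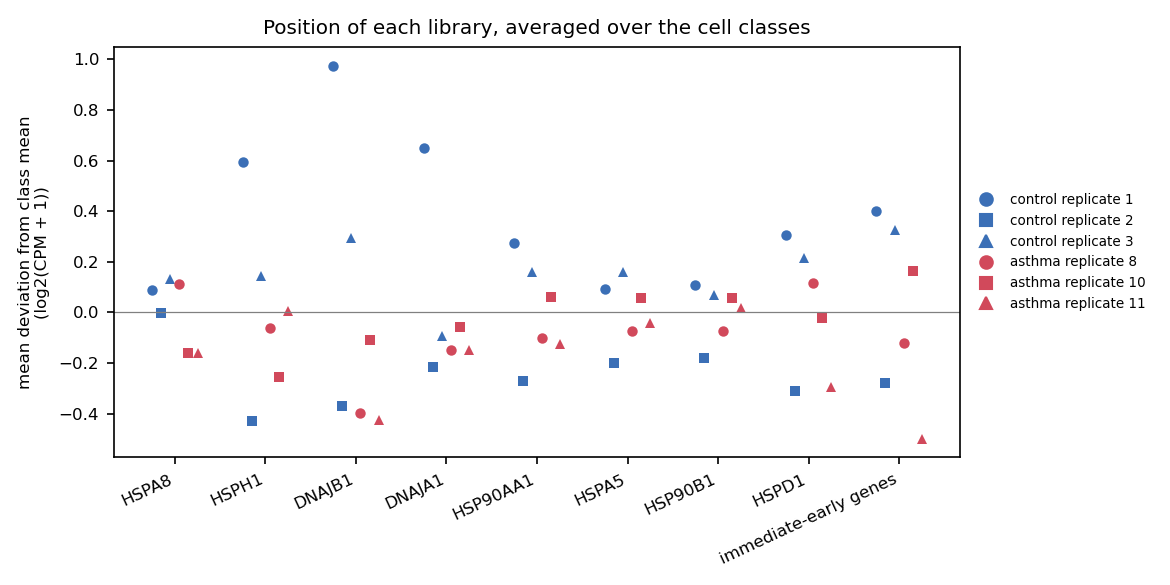
Mean deviation of each library from the class mean on the log2(CPM + 1) scale, averaged over the classes, for the 8 chaperone genes and the summed immediate-early genes, blue for control and red for asthma. Control replicate 1 is highest for DNAJB1 (0.97) and DNAJA1 (0.65), and control replicate 2 is lowest for HSPD1 (-0.31) and HSP90AA1 (-0.27), while the HSPH1 points include the classes in which a library had 0 UMIs.

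Control replicate 1 also held most cells of several sub-clusters, 522 of 543 cells in a macrophage-like one, 134 of 146 in a B-like one and 107 of 114 in a monocyte-like one. Within control replicate 1, DNAJB1 was 458 CPM in these macrophage-like cells and 288 in its other macrophage-like cells, while the other libraries ran from 64.8 to 291 over the whole class. DNAJA1 was 567 CPM in the B-like sub-cluster and 312 in the other B-like cells of that library, and the other libraries had 152 to 182. Its other B-like cells were thus above the remaining libraries as well. In the monocyte-like sub-cluster both genes were lower inside than outside it, with DNAJB1 at 168 against 248 CPM and DNAJA1 at 289 against 338. In the macrophage-like one DNAJA1 was 446 against 366 CPM, and in the B-like one DNAJB1 was 203 against 179. Chaperone genes took no part in this clustering. Other libraries also held most cells of some sub-clusters. Asthma replicate 11 held 334 of 343 and 224 of 235 cells in monocyte-like ones, and asthma replicate 10 held 266 of 280 in a macrophage-like one.

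Asthma was compared with control within each class and over all retained cells. Of 93 tested results for the 8 genes in 12 classes, 1 was called (1.08%), HSPH1 in endothelial-like cells, against 0.642% of all genes. Levels tended to be lower in asthma, with negative log2 fold changes in 75 of 93 results and a median of -0.26. Medians of all genes ran from -0.014 in epithelial-like to 0.05 in smooth muscle-like cells. The 93 results share the same libraries, so they are not independent, and a shift of 1 library counts in many of them. An unadjusted p under 0.05 was found for 15 results (16.1%), all negative, against 8.17% of all genes. This balance rested in part on 1 library. Without control replicate 1, 58 of 94 results were negative with a median of -0.09, 5 had an unadjusted p under 0.05, 4 of them negative, and 0 were called by edgeR. With library sizes alone 67 of 93 were negative (median -0.20) and 9 had an unadjusted p under 0.05, 8 of them negative. Without asthma replicate 11, 67 of 93 were negative (median -0.195) and 9 had an unadjusted p under 0.05. Without control replicate 2 the balance was stronger, with 81 of 94 negative (median -0.37) and 21 at an unadjusted p under 0.05. With control replicate 3, asthma replicate 8 or asthma replicate 10 left out, the medians were -0.245, -0.285 and -0.311. The list of other endoplasmic reticulum chaperones had mostly positive values over all cells, with 3 of 16 genes negative (median log2 fold change 0.13). The same held in macrophage-like (1 of 15 negative, 0.14) and dendritic-like cells (0 of 13, 0.25). Of these, 0 were called by edgeR, with 1, 3 and 1 at an unadjusted p under 0.05. Without control replicate 1 these counts of negative values were 1 of 16, 2 of 15 and 5 of 13. The list was mostly negative in epithelial-like (9 of 15, median -0.191), endothelial-like (9 of 15, -0.033) and mesothelial-like cells (8 of 13, -0.125). Over all cells 19 of 20 tested immediate-early genes had negative values, with 0 called and 4 at an unadjusted p under 0.05 (edgeR). Median UMIs per cell (4690 ± 364 in control, 4016 ± 173 in asthma) and the median mitochondrial share (6.26 ± 0.56% and 5.25 ± 0.13%) did not overlap between the groups, with asthma below, and the part of these in the chaperone values was not tested. The share of all genes called by edgeR was 5.64% in endothelial-like, 0.735% in fibroblast-like, 0.364% in smooth muscle-like, 0.0370% in mesothelial-like and 0.0159% in B-like cells. In the other classes edgeR called no gene with every library, TMM scaling and the filter on low counts. With no such filter its calls there ran from 1 in macrophage-like to 145 in dendritic-like cells. DESeq2 called 79 there in T and NK-like, 45 in macrophage-like, 13 in epithelial-like, 12 in monocyte-like, 11 in dendritic-like, 2 in plasma-like and 0 in granulocyte-like cells. The edgeR shares moved with single libraries. The 441 calls in endothelial-like cells fell to 32 without asthma replicate 10, 82 without control replicate 1, 83 without asthma replicate 11 and 109 without control replicate 3. The 46 calls in fibroblast-like cells fell to 4 without control replicate 3 and 9 without control replicate 1, and rose to over 2 times the count without asthma replicate 8. When each library was left out, the 14 in smooth muscle-like cells became 0 to 185, the 2 in mesothelial-like cells 0 to 4 and the 1 in B-like cells 0 to 6. T and NK-like, monocyte-like, macrophage-like and dendritic-like cells, with 0 calls by edgeR, then had at most 3, 1, 2 and 6. HSPH1 in granulocyte-like and smooth muscle-like cells and HSPD1 in granulocyte-like cells did not pass the filter on low counts. Over all cells the log2 fold changes of the chaperones ran from -0.73 for DNAJB1 to 0.05 for HSP90B1 (median -0.38), and without control replicate 1 they were -0.26 and 0.26 for these genes (median -0.06). By edgeR 0 of the 8 were called there, where 0.0839% of all genes were, and HSPA8 and HSPH1 had an unadjusted p under 0.05, as did 12.9% of all genes. The called share over all cells stood for 12 genes, and for 0 to 11 when each library was left out. With DESeq2 it was 647 genes.

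Over all 96 gene-by-class sets of values, every asthma library lay below every control library in 12 (12.5%) and above in 4 (4.17%), where 4.17% and 9.80% of all genes with at least 10 UMIs did so. The 4 above were HSP90B1 in monocyte-like and fibroblast-like, HSPD1 in fibroblast-like and DNAJA1 in mesothelial-like cells, and HSPH1 supplied 4 of the 12 below.

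**Figure D4:**
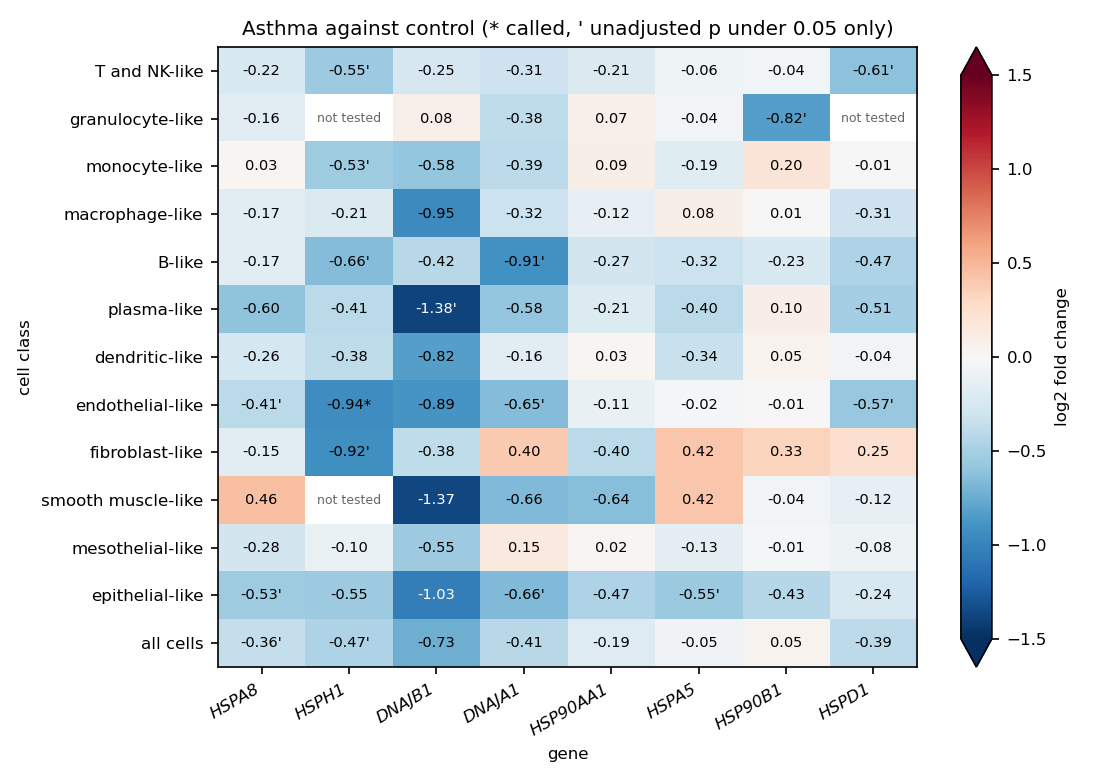
Log2 fold change of asthma against control for each chaperone gene (columns) in each class and in all cells (rows), red for higher and blue for lower in asthma, with an asterisk for a call and a prime for an unadjusted p under 0.05 only. HSPH1 is negative in all 10 classes where it was tested, and its value of -0.94 in endothelial-like cells is the only call.

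HSPH1 had negative values in 10 of the 10 classes in which it was tested (median log2 fold change -0.54), and in 10 of 11 without control replicate 1 (median -0.42). In T and NK-like cells the controls had 94.1, 100.3 and 82.7 CPM, while asthma replicates 8, 10 and 11 had 72.2, 68.3 and 52.4. Every asthma library was below every control library, but the change was not called (log2 fold change -0.55, SE 0.16, adjusted p = 0.469, edgeR). In monocyte-like cells the values were 113, 105 and 80.2 against 76.1, 58.3 and 79.3 CPM, again with no overlap and no call (-0.53, SE 0.17, adjusted p = 0.716, edgeR). In B-like cells they were 65, 73.7 and 65.1 against 62.6, 31.8 and 22.8 CPM (-0.66, SE 0.29, adjusted p = 0.787, edgeR). The B-like values came from only 3 to 61 HSPH1 UMIs per library, and asthma replicate 11 had 30 B-like cells. Macrophage-like, plasma-like, dendritic-like, fibroblast-like, mesothelial-like and epithelial-like libraries overlapped. The median mitochondrial share per cell was also lower in every asthma library of 2 of the classes without overlap in HSPH1. It was 6.14 ± 0.36% in the control against 5.17 ± 0.27% in T and NK-like cells and 7.25 ± 0.39% against 5.64 ± 0.97% in B-like cells (n = 3 each). Immediate-early genes had negative values in 14 of 20 tested in T and NK-like and 15 of 15 in B-like cells, with 0 called by edgeR and 3 and 5 at an unadjusted p under 0.05. Their part in the HSPH1 levels was not tested.

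DNAJB1 had the largest negative median (-0.70 over 12 classes, 11 of them negative) and no call. In macrophage-like cells it measured 394, 127 and 291 CPM in the control and 167, 214 and 64.8 in the asthma libraries, so the groups overlapped (log2 fold change -0.95, SE 0.51, adjusted p = 0.883, edgeR, and -0.59 without control replicate 1). Without that library its median over classes was -0.17, with 8 of 12 negative. In plasma-like cells the values were 125, 72.4 and 185 against 32.0 and 41.5 CPM, with no overlap and no call (-1.38, SE 0.43, adjusted p = 0.987, edgeR). Only 2 asthma libraries entered there, and the values came from 6 to 54 DNAJB1 UMIs and 11 to 39 cells per library. DNAJA1 had negative values in 10 of 12 classes (median -0.39) and in 6 of 12 without control replicate 1 (median -0.08).

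HSP90B1 and HSPA5 had medians near 0 (-0.01 and -0.10), and HSP90AA1 (-0.16), HSPA8 (-0.20) and HSPD1 (-0.24) were slightly negative. Without control replicate 1 the medians were 0.074 for HSP90B1, 0.066 for HSPA5, 0.002 for HSP90AA1, -0.173 for HSPA8 and -0.068 for HSPD1. HSP90B1 in fibroblast-like cells measured 603, 746 and 633 against 779, 842 and 1105 CPM and was not called (0.33, SE 0.21, adjusted p = 0.657, edgeR). HSPA8 in epithelial-like cells, at 746, 797 and 848 against 651, 578 and 608 CPM, was among the 12 below and was not called either (-0.53, SE 0.19, adjusted p = 0.614, edgeR).

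In endothelial-like cells all 8 genes had negative values (median -0.49), beside a median of 0.01 for all genes. Only 5 of the 8 were negative without control replicate 1 (median -0.14), when DNAJB1, HSP90AA1 and HSPA5 turned positive, and 5 of 8 with library sizes alone (median -0.27), when HSP90AA1 (0.11), HSP90B1 (0.21) and HSPA5 (0.20) did. With every library and TMM scaling, 4 of the 8 had an unadjusted p under 0.05, as did 22.7% of all genes. The HSPH1 level was 82.3, 64.7 and 64.05 CPM in the controls, while asthma replicates 8, 10 and 11 had 48.6, 37.7 and 40.6, from 214 UMIs in all. The group means were 70.4 ± 10.4 and 42.3 ± 5.65 CPM (n = 3 each), every asthma library was below every control library, and the gene was called lower (log2 fold change -0.94, SE 0.23, adjusted p = 0.0425, edgeR), where 3.16% of all genes were. Without control replicate 1 it was not called (-0.82, adjusted p = 0.122), nor without any other single library, where the adjusted p ran from 0.0584 to 0.152. HSPD1, DNAJA1 and HSPA8 followed with -0.57, -0.65 and -0.41 and adjusted p-values from 0.127 to 0.21 (edgeR), and were not called. Without control replicate 1 these values were -0.50, -0.25 and -0.35.

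**Figure D5:**
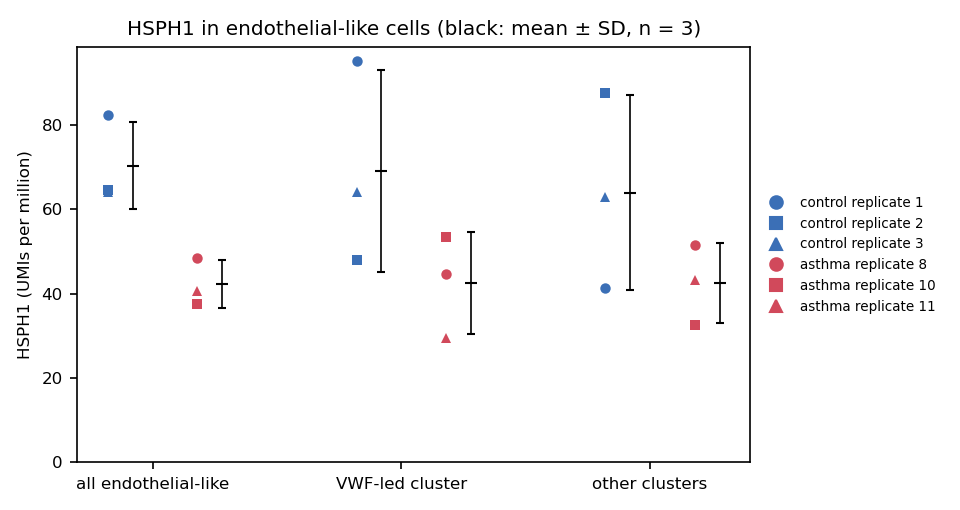
HSPH1 level (CPM) per library in all endothelial-like cells, in the VWF-led cluster and in the other endothelial-like clusters, with the mean and SD of 3 libraries in black, blue for control and red for asthma. The groups are apart in all cells (64.05 to 82.3 against 37.7 to 48.6) and overlap in both parts.

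The makeup and depth of these cells differed between the groups. A cluster led by VWF, the von Willebrand factor gene, held 64.4%, 44.4% and 81.7% of control endothelial-like cells but 26.7%, 17.4% and 15.4% of those of the asthma group, and median UMIs per cell were 5611, 5593 and 6785 against 3234, 3514.5 and 2482. Only 45, 36 and 104 cells came from the controls. Within the VWF-led cluster HSPH1 was 95.2, 48.0 and 64.2 against 44.7, 53.6 and 29.5 CPM. In the other clusters it was 41.3, 87.5 and 63.0 against 51.6, 32.6 and 43.3, so that the groups overlapped in both. These parts divide 14 to 50 HSPH1 UMIs per library, too few to decide whether the groups differ within either. Summed markers of red blood cells (0 to 13.9 CPM) and platelets (0 to 5.38 CPM) were near 0 in endothelial-like cells. The part of cluster makeup and depth in the HSPH1 call was not tested.

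Of the other chaperone and regulator lists, 3 genes were called between asthma and control, all in endothelial-like cells, where they were 5.26% of 57 tested list genes against 5.64% of all genes. HSPB8 was higher, with 52.7, 46.2 and 17.4 CPM in the control and 120.5, 169 and 208 in the asthma libraries (log2 fold change 2.05, SE 0.38, adjusted p = 0.0189, edgeR), and was called in 3 of the 6 fits that left out 1 library, among them that without control replicate 1 (2.44, adjusted p = 0.0468), with adjusted p-values from 4.252e-06 to 0.0693 over 17 alternatives. HSPB8 was also a leading gene of a sub-cluster of these cells that held 1, 1 and 2 control and 25, 47 and 67 asthma cells, whose part in the result was not tested. DNAJB4, a J-domain protein gene, was lower, with 237, 87.8 and 81.4 against 53.4, 40.9 and 48.4 CPM (-1.69, SE 0.39, adjusted p = 0.0366, edgeR), and was called in 2 of the 6 fits that left out 1 library, not in that without control replicate 1 (-1.02, adjusted p = 0.062). HSP90AB1, the constitutive cytosolic HSP90, was lower, with 1074, 1058 and 1090 against 855, 647 and 770 CPM (-0.72, SE 0.18, adjusted p = 0.0479, edgeR), and was called in 0 of the 6 fits that left out 1 library and in 3 of 17 alternatives in all (without control replicate 1 -0.71, adjusted p = 0.117, edgeR). Among immediate-early genes NR4A1 (-1.91, SE 0.40) and IER3 (-0.89, SE 0.22) were called lower in the same cells, and neither was called without control replicate 1. Of the 6 fits that left out 1 library, NR4A1 was called in 2 and IER3 in 0.

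Whether the asthma effect in a class differed from that in T and NK-like cells was tested with an interaction term. Of 88 terms for the 8 genes 0 were called by edgeR (smallest adjusted p = 0.5975), with 2 at an unadjusted p under 0.05, and 0.137% of all genes were called. HSPD1 had asthma libraries all lower in endothelial-like and all higher in fibroblast-like cells, and the difference of these effects (0.755, SE 0.33) was not called (adjusted p = 0.378, edgeR), where 0.814% of all genes were.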

How the data were processed

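The deposited UMI counts per gene and barcode were made by the authors with Cell Ranger on the macFas6 genome and not normalized. Its version is 2.1.1 in the submitters' processing notes and 4.0.0 in the file headers, and the paper's methods name yet another version. Reads shared with near-identical copies or pseudogenes of HSPA8, HSP90AA1 or HSPD1 cannot be placed with certainty. Quality control kept barcodes with 500 UMIs or more, over 500 and under 5000 genes, and a mitochondrial share (37 genes) up to 25%. Cells were clustered with scanpy 1.11.5 (2000 variable genes without chaperones, 10 components, 20 neighbours, Leiden resolution 0.8), named by at least 3 markers, and mixed sub-clusters (1495 cells) were left out by thresholds set after seeing the data. Doublets were otherwise not removed, except in an alternative by Scrublet score, whose own threshold marked too few cells to use. Counts were summed per library and class (at least 10 cells) and tested with edgeR 4.0.16 in R 4.3.3 (TMM, filterByExpr, Benjamini-Hochberg over all genes of a comparison). Standard errors were derived from the F statistic. Named genes were every member, called genes of the other lists, up to 3 per list with the largest class contrast, and the 2 closest in level. Members and lists were chosen with earlier results of these data known. Promoter motifs were not searched. Alternatives included DESeq2 1.42.0, other filters and scalings, and each library left out. Libraries shared at most 11 barcodes.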

Additional observations from a re-analysis of the deposited data

Results flagged for a closer look

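A pair of genes had asthma libraries all below control in 1 class and all above in another. DNAJA1 in B-like cells had a ratio of mean asthma to mean control CPM of 0.567, with 464, 182 and 173 CPM in the control and 157, 156 and 152 in the asthma libraries, and in mesothelial-like cells a ratio of 1.22, with 94.3, 92.4 and 90.1 against 102.5, 99.8 and 136 CPM. Without control replicate 1 the ratio in B-like cells was 0.871 and the log2 fold change -0.20 (adjusted p = 0.9999, edgeR), and the ratio in mesothelial-like cells 1.24. The difference of the asthma effect between mesothelial-like and B-like cells was 0.96 on the log2 scale (SE 0.44) and was not called (adjusted p = 1, edgeR, where 0 of 10694 genes were called), and without control replicate 1, an alternative chosen after seeing the data, it was 0.425 (SE 0.49, adjusted p = 1, edgeR). HSPD1 in endothelial-like cells had a ratio of 0.785, with 171, 139 and 156 against 138, 100.1 and 128 CPM, and in fibroblast-like cells a ratio of 1.28, with 128, 85.6 and 125 against 152, 144 and 138 CPM. The difference between fibroblast-like and endothelial-like cells was 0.755 (SE 0.33) and was not called either (adjusted p = 0.378, edgeR, where 0.814% of genes were called), and it was 0.748 without control replicate 1 (SE 0.39, adjusted p = 0.583, edgeR).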

How the results depend on the processing

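The count of chaperone genes called between asthma and control was 1 and moved to 0 with a mitochondrial maximum of 10%, with mixed sub-clusters kept, with library sizes only and with DESeq2, and to 4 with no filter on low counts, where DNAJA1 in B-like, DNAJB1 in dendritic-like and HSPH1 in fibroblast-like cells joined HSPH1 in endothelial-like cells. It ranged from 0 to 0 when each library was left out. Over all 17 alternatives HSPH1 in endothelial-like cells had log2 fold changes from -1.05 to -0.71 and adjusted p-values from 0.0384 to 0.152. The count between cell classes was 58 and ranged from 52 to 57 when each library was left out. Of these calls 35 were kept under all 17 alternatives and 23 were lost under at least 1, among them 15 with library sizes only and 11 with RLE normalization. The losses with RLE normalization are not marked beside the genes above. The sign turned for HSPD1 in B-like cells with the mitochondrial share from 13 genes (-0.028) and with mixed sub-clusters kept (-0.061), and, with library sizes only, for HSPA5 in endothelial-like (0.091) and HSP90AA1 in smooth muscle-like cells (0.268). That scaling also moved the share of higher calls over all genes from 58.8% to 89.7% in smooth muscle-like and from 62.1% to 85.4% in endothelial-like cells, and between asthma and control in endothelial-like cells from 44.0% to 74.2%. Mixed sub-clusters, the share from 13 genes and library sizes only were chosen after seeing the data. The causes were not tested. The interaction terms against T and NK-like cells were tested in the main setting alone. No paired analysis was possible because the groups share no replicate number.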

Other observations

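CRYAB, the gene of the small heat shock protein alpha B-crystallin, measured in smooth muscle-like cells 418, 392 and 555 CPM in the control and 27.6, 165 and 126 in the asthma libraries, with no overlap between them. It was not called (log2 fold change -2.29, SE 0.50, adjusted p = 0.0803, edgeR), and over 17 alternatives it was called in 3. It was chosen after its values were seen. A read-through locus named HSPE1-MOB4, beside HSPD1, was highest in T and NK-like (126 ± 5.57 CPM) and B-like cells (102 ± 21.2) and lowest in plasma-like cells (40.5 ± 15.8).

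Barcodes with too few genes had lower levels of the 8 chaperone genes together, from 731 to 2335 CPM per library, than retained cells, from 3535 to 5048. Control replicate 1 was the highest library in both. Barcodes over the mitochondrial maximum had 2405 to 4555 CPM, and those with too many genes 4610 to 6138, in each library more than its retained cells. Among retained cells the same sum was 1225 to 1700 CPM in granulocyte-like and 4248 to 5555 in macrophage-like cells. The part of class makeup in the differences between barcodes was not tested.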
